A study of Mus musculus with 24 samples.

Results

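The genes of 7 leukocyte adhesion molecules, Sele, Selp, Icam1, Icam2, Vcam1, Madcam1 and Selplg, were followed through the conversion of amniotic cells into endothelial-like cells. The members were taken by name from 22282 genes, each was present as 1 RefSeq transcript, and all 7 passed the filter on low values together with the rest of 14964 tested genes. Levels are FPKM, numbers of sequenced fragments scaled to the length of the transcript and to the size of the library, so that levels of different genes are compared per length.

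Blood leukocytes leave a vessel in steps. Selectins on the endothelial cell (EC), which are E-selectin (Sele) and P-selectin (Selp), hold rolling cells by binding sugar-bearing ligands such as PSGL-1, the product of Selplg, on the leukocyte. Leukocyte integrins then bind immunoglobulin-type receptors on the EC, encoded by Icam1, Icam2, Vcam1 and Madcam1, and the cell stops and crosses between or through ECs. In resting vessels Icam2 is constitutively expressed in ECs, whereas Sele, Icam1 and Vcam1 are classically induced by inflammatory cytokines.

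The study sequenced RNA from 24 libraries of C57BL/6J mouse cells, 3 libraries in each of 8 groups, to ask how closely converted cells resemble ECs and what constitutive Akt signalling or Sox17 adds. MACs are cultured amniotic cells of embryos of stage E11.5 to E13.5, and RACVECs are MACs that received lentiviruses for the Ets transcription factors Etv2, Erg and Fli1. Akt-MACs are MACs given a constitutively active, myristoylated Akt. By the labels, Akt-RACVECs were given the 3 Ets factors and this Akt, and Sox17-RACVECs the 3 Ets factors and mouse Sox17. Akt-LECs and Akt-liver ECs are lung and liver ECs that were bound to anti-CD31 beads, transduced with the same Akt and sorted again for VEcad and CD31. LSECs are liver ECs sorted directly from mice injected with anti-VEcad antibody and isolectin, without culture or transduction. Per the study's methods a MAC replicate is a separately isolated culture of pooled embryos, the Ets and Akt viruses used a ubiquitous promoter, Sox17-RACVECs were puromycin selected, and RACVECs were grown in EC medium with a TGF-β signalling inhibitor whereas MACs had amniotic medium. Transduction and medium therefore cannot be told apart in comparisons with MACs. By the labels all cultured primary ECs carry Akt. None of the 24 libraries is labelled as a cultured primary EC without Akt.

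Several libraries stood apart or went against their labels. Sox17 was at 5.09, 40.1 and 200.1 FPKM in Sox17-RACVECs 1, 2 and 3 and listed at 0 in RACVECs, and it was also at 12, 83.5 and 82.2 in Akt-RACVECs, where it had not been added. Akt1 was at 551 to 692 FPKM in MACs and 607 to 694 in RACVECs, against 848 to 1279 in Akt-MACs, 872 to 1281 in Akt-RACVECs and 884, 1323 and 916 in Sox17-RACVECs, which are not labelled as given Akt. It was at 892, 559 and 656 FPKM in Akt-liver ECs 1, 2 and 3, 798 to 1266 in Akt-LECs and 451 to 523 in LSECs. Akt-liver ECs 2 and 3 thus lay within the range of MACs and RACVECs, although labelled as given Akt. The level of Erg was 3.91, 13.8 and 0.9 FPKM in RACVECs, although it had been transduced, and 395 to 1002 in Akt-RACVECs. Etv2 was between 127 and 860 FPKM in RACVECs and Akt-RACVECs and at 458 and 378 in libraries 1 and 3 of the Sox17-RACVECs, but was listed at 0 in the library labelled Sox17-RACVEC 2, as in all MAC, Akt-MAC and primary EC libraries. Erg was at 387 FPKM in that library, against 4.49 and 0 in the other Sox17-RACVECs, and its values were closest to those of Akt-RACVEC 3 (r = 0.970 across genes, which are not independent replicates). Differences that use Sox17-RACVECs are therefore given with and without this library, whereas the orders of groups include it. Endothelial markers were low in MACs and Akt-MACs, where 8 genes summed to 26.1 to 130 FPKM, and reached 1805 to 3497 in RACVECs, 10633 to 18517 in Akt-RACVECs, 6918 to 16761 in the cultured primary ECs and 18004 to 20188 in LSECs. In Akt-MAC 2 and 3 the 6 leukocyte markers summed to 3002 and 8028 FPKM, against 148 in Akt-MAC 1 and at most 37.0 in MACs, and the 6 macrophage markers to 172, 7228 and 20081 FPKM in Akt-MACs 1, 2 and 3. Of the macrophage markers 2 were at 0 in Akt-MAC 1 and 1, Clec4f, in Akt-MAC 2 and 3. LSECs held 1509 to 2019 FPKM of leukocyte, 8489 to 14078 of macrophage and 1950 to 11570 of hepatocyte markers, with no marker of these lists at 0. Akt-LEC 1 and Akt-liver EC 1 were closer to each other (r = 0.949) than to their own groups and held 2706 and 1397 FPKM of mesenchymal markers, with none of 6 at 0. RACVEC 2 was closer to Sox17-RACVEC 1 (r = 0.961) than to the other RACVECs (0.914 and 0.921). Some other libraries were also closest to a library outside their group. In bulk RNA, fewer cells of a type and less RNA per cell cannot be told apart.

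The plot of the 7 members by library shows that each gene had its own pattern over the groups. Differences were tested with limma on log2(FPKM + 1) over all 14964 genes, and a gene was called at a Benjamini-Hochberg adjusted p below 0.05 and a log2 difference above 1 in size. Over the 28 possible pairs of groups, Selp was called in 15 and Icam2 in 13, Selplg in 12, Madcam1 in 3, Sele and Vcam1 in 1 each and Icam1 in 0, where 12% of all tests of genes in these pairs were called. Without the library labelled Sox17-RACVEC 2 the counts were 15 for Selp, 15 for Icam2, 12 for Selplg, 3 each for Madcam1 and Vcam1 and 2 each for Sele and Icam1, against 12.6% of all tests.

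**Figure D1:**
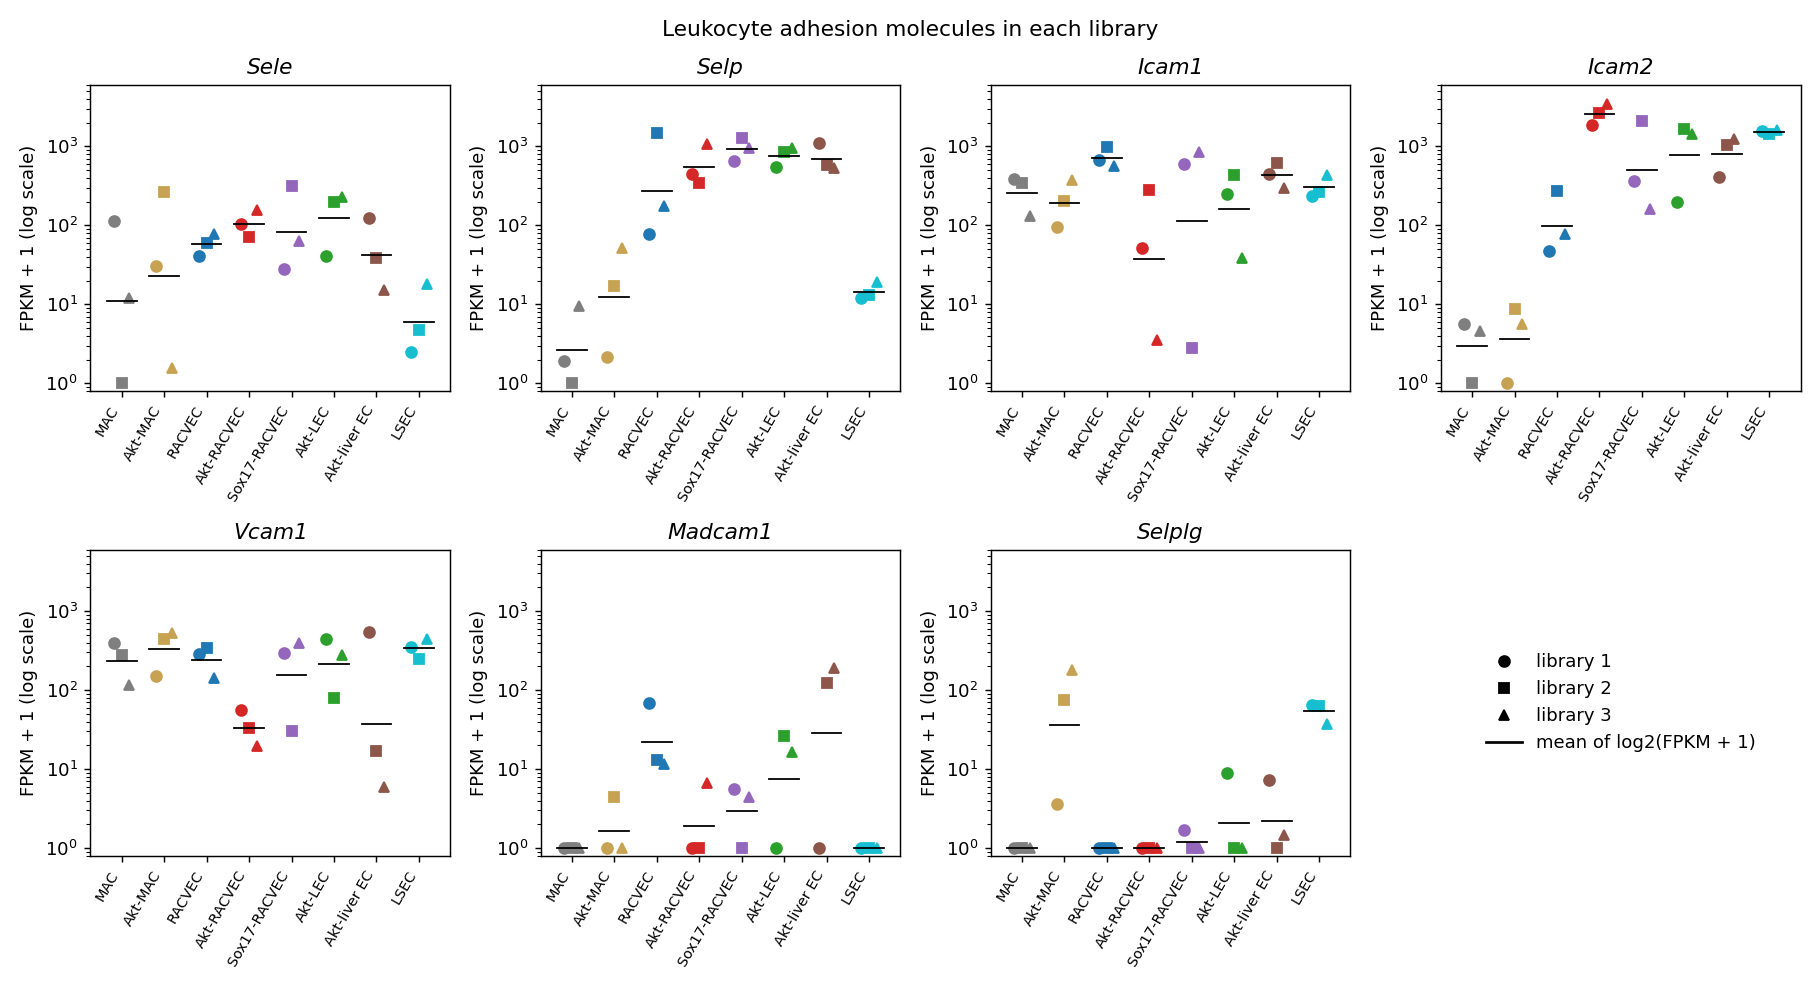
FPKM + 1 of each member (log axis) in the 24 libraries, with circles, squares and triangles for libraries 1, 2 and 3 of a group and a line at the mean of log2(FPKM + 1) on that axis. Selp and Icam2 are lower in every MAC and Akt-MAC library than in every converted or cultured EC library. Icam2 in RACVECs (46.0 to 268 FPKM) lies below Icam2 in Akt-RACVECs (1890 to 3446). Selplg is above 0 in every library only in Akt-MACs and LSECs.

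P-selectin is stored in granules of ECs and platelets and is the earliest selectin to reach the surface. Selp (mm9 chromosome 1, 166045395 to 166080157, forward strand) was at 0.9, 0 and 8.53 FPKM in MACs and at 1.18, 16.3 and 50.3 in Akt-MACs. In the RACVEC libraries it was at 77.8, 1467 and 175 FPKM, in Akt-RACVECs at 451, 343 and 1086, and in Sox17-RACVECs at 647, 1285 and 952. The cultured primary ECs had 545, 849.6 and 954 FPKM (Akt-LECs) and 1111, 573 and 534 (Akt-liver ECs), whereas LSECs had 11.1, 12 and 18.1. Every Ets-transduced or cultured EC library was thus above every MAC, Akt-MAC and LSEC library. In the order of means the only neighbouring groups that differed were RACVECs and LSECs, by 4.24 ± 1.03 (SE) on the log2(FPKM + 1) scale (adjusted p = 0.00345, with 29.9% of all genes called in this pair). Among the other neighbours the libraries overlapped and no difference was called. Genes of platelets (Pf4, Ppbp and 4 others) summed to 12.3 to 78.9 FPKM in RACVECs, 18.6 to 35.8 in MACs, 98.4 to 220 in Akt-RACVECs, 16.2 to 147 in Sox17-RACVECs, 35.9 to 657 in Akt-LECs, 16.5 to 217 in Akt-liver ECs, 225 to 716 in Akt-MACs and 148 to 259 in LSECs. Pf4 alone made 675 of 716 FPKM in Akt-MAC 2, 624 of 657 in Akt-LEC 3 and 188 of 220 in Akt-RACVEC 3. In Akt-MAC 2 Itga2b, Gp9, Gp1bb and Gp1ba were at 2.05, 2.38, 14.7 and 2.4 FPKM. Pf4 made less of the sum in LSEC 1 (129 of 259 FPKM) and in Akt-MAC 1, where Ppbp was at 144 and Pf4 at 113. A high sum therefore does not by itself show platelets. The part of these genes in the differences of Selp was not tested.

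Because the cells received Ets factors and because Sele, Selp and Icam1 differed in pattern, the 250 bases before their start sites are shown, from RefSeq on GRCm38.p6. A RefSeq window was matched for 4 of the 7 members, Sele, Selp, Icam1 and Madcam1, and not for Icam2, Vcam1 and Selplg. Capitals mark matches on either strand to the Ets letters (either AGGAAG or AGGAAA, or else CGGAAG or CGGAAA with another first letter) or to the letters GGNNNTTCC of NF-kB type.
Selp (chr1:164115014-164115263, forward strand): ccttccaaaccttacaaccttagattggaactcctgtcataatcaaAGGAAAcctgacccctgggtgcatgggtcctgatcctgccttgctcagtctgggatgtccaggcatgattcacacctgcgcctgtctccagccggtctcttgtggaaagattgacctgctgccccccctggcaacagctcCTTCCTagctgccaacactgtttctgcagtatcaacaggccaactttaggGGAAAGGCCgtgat
Sele (chr1:164047984-164048233, forward strand): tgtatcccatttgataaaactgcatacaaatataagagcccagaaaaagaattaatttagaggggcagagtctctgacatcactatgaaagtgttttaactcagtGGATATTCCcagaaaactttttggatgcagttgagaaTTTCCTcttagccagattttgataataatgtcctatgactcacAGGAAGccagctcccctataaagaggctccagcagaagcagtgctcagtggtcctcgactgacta
Icam1 (chr9:21015690-21015939, forward strand): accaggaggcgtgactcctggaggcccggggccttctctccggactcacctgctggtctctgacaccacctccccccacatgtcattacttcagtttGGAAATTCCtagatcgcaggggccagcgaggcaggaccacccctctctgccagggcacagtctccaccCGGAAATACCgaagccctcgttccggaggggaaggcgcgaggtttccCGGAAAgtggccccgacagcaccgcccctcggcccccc
Each of these windows held 2 Ets matches. Of 32851 RefSeq windows of the same length, 57.2% held at least 1 and 24.2% at least 2. The NF-kB letters occurred once in Selp and Sele and at 2 places in Icam1, 1 of which overlapped an Ets match. Of all windows 15.7% held them at least once and 1.5% at 2 or more places. These letters were chosen after the sequences were seen, so the shares do not test whether the members hold more of them. In Selp the NF-kB match lay 14 to 6 bases before the start and in Sele 145 to 137 bases before it. The window of Madcam1, which is not printed, held 1 Ets match and the NF-kB letters at 2 places. Any part of these matches in the levels of the genes was not tested. A match is a run of letters and not a measured site.

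E-selectin is made by ECs after cytokine stimulation. Sele (chromosome 1, 165978365 to 165987808, forward strand) was at 113, 0 and 11.2 FPKM in MACs and at 29.3, 260.2 and 0.55 in Akt-MACs. Its level was 39.8, 59.5 and 77.4 FPKM in RACVECs, 104, 70.2 and 155 in Akt-RACVECs and 26.9, 312 and 62.6 in Sox17-RACVECs. Akt-LECs had 40.3, 197 and 231 FPKM, Akt-liver ECs 124, 37.8 and 14.3, and LSECs 1.53, 3.74 and 17.1. In MACs and Akt-MACs the libraries of 1 group spread from near 0 to over 100 FPKM, all neighbouring groups overlapped and no neighbours were called. Its single call among the 28 pairs was the higher level in Akt-LECs than in LSECs (log2 fold change 4.36 ± 1.60, adjusted p = 0.0446). RACVEC levels, 58.9 ± 18.8 FPKM (SD, n = 3), lay within the wide range of the 3 MAC libraries. By qPCR, which is another measure, the study reported Sele (as CD62e) among the EC genes strongly induced from MACs to RACVECs. It described the RACVEC level of this gene as not distinguishable from that of Akt-LECs. Its qPCR had more replicates than the libraries of a group here. The study also stated that flow cytometry of EC proteins bore out its transcript levels.

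Icam1 encodes a ligand of the leukocyte integrins LFA-1 and Mac-1. Icam1 (chromosome 9, 20820404 to 20833241, forward strand) was already high in MACs, at 385, 340.4 and 129 FPKM, and in Akt-MACs, at 94.6, 202 and 378. RACVECs had 681, 973 and 559 FPKM, whereas Akt-RACVECs had 50.8, 276 and 2.58. The libraries labelled Sox17-RACVEC had 601, 1.83 and 847 FPKM, in the order of libraries 1, 2 and 3. Icam1 in that library was thus closest to Akt-RACVEC 3, and the remaining Sox17-RACVECs lay within the RACVEC range. Akt-LECs had 246, 428 and 37.7 FPKM, Akt-liver ECs 447, 613 and 293, and LSECs 236, 266 and 438. RACVECs therefore held the highest mean, 738 ± 213 FPKM (SD, n = 3). The next group on the log2 scale, Akt-liver ECs, differed from it by less than the error (0.73 ± 1.63), and no pair of groups was called with all libraries.

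Icam2 encodes an endothelial ligand of LFA-1 that does not need a cytokine signal. Icam2 (chromosome 11, 106238970 to 106249389, reverse strand) was at 4.67, 0 and 3.59 FPKM in MACs and 0, 7.81 and 4.65 in Akt-MACs. Its level was 46.0, 268 and 76.2 FPKM in RACVECs and 1890.4, 2642 and 3446 in Akt-RACVECs. Each Akt-RACVEC library was above every other library except the one labelled Sox17-RACVEC 2. Sox17-RACVECs had 359, 2114 and 162 FPKM, the high value being that of the library labelled Sox17-RACVEC 2, and without it 162 to 359. Akt-LECs had 198, 1639 and 1415 FPKM, Akt-liver ECs 406, 1030.1 and 1241, and LSECs 1546, 1425 and 1589.6. The low values of the primary ECs were those of Akt-LEC 1 and Akt-liver EC 1, the libraries with mesenchymal markers. Among neighbours in the order of means only RACVECs and Akt-MACs differed (4.75 ± 1.00 on the log2 scale, adjusted p = 0.00504, with 11.6% of genes called in this pair). Akt-RACVECs and LSECs differed by 0.77 ± 1.00 and LSECs and Akt-liver ECs by 0.92 ± 1.00, neither called, although their libraries did not overlap.

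Vcam1 encodes the receptor of the integrin VLA-4 and is also expressed by many mesenchymal cells. Vcam1 (chromosome 3, 115812938 to 115832606, reverse strand) was at 390.2, 275 and 116 FPKM in MACs, 152, 445 and 527 in Akt-MACs and 288, 338 and 143 in RACVECs. In Akt-RACVECs it was at 55.2, 32.2 and 18.8 FPKM, below every library of these 3 groups. Sox17-RACVECs 1 and 3 had 293 and 399 FPKM and the library labelled Sox17-RACVEC 2 had 29.8. Akt-LECs had 446, 78.0 and 280.1 FPKM, LSECs 354, 246 and 441, and Akt-liver ECs 536, 15.7 and 4.97. The high Akt-liver EC value was that of library 1. No neighbouring groups differed, and the only call among the 28 pairs was the lower level in Akt-RACVECs than in LSECs (log2 fold change -3.35 ± 1.21, adjusted p = 0.0392).

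Madcam1 encodes the addressin of gut and lymphoid vessels, which binds the integrin of Itga4 and Itgb7. Madcam1 (chromosome 10, 79127319 to 79131281, forward strand) was listed at 0 in every MAC and LSEC library. It was at 0, 3.4 and 0 FPKM in Akt-MACs, 68.6, 12.1 and 10.7 in RACVECs, 0, 0 and 5.71 in Akt-RACVECs and 4.68, 0 and 3.41 in Sox17-RACVECs. Akt-LECs had 0, 24.9 and 15.4 FPKM and Akt-liver ECs 0, 123 and 190.0, with the zeros in Akt-LEC 1 and Akt-liver EC 1. RACVECs were thus the only group with Madcam1 above 0 in every library, and in the order of means no neighbours differed.

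Selplg encodes PSGL-1, the leukocyte ligand of the selectins, and serves as the leukocyte side of the list. Selplg (chromosome 5, 114267807 to 114280510, reverse strand) was listed at 0 in all MAC, RACVEC and Akt-RACVEC libraries. It was at 2.58, 73.2 and 180.2 FPKM in Akt-MACs, 64.6, 61.3 and 36.8 in LSECs, 0.68, 0 and 0 in Sox17-RACVECs, 7.83, 0 and 0 in Akt-LECs and 6.34, 0 and 0.47 in Akt-liver ECs. The libraries above 10 FPKM were those whose leukocyte markers summed to 1509 FPKM or more, and the values near 7 were those of Akt-LEC 1 and Akt-liver EC 1, with 344 and 317 FPKM of leukocyte markers. RACVEC 1, with 642 FPKM of leukocyte markers, had 2 of the 6 markers and Selplg at 0, and Cd53 alone made 627 of its sum. In RACVECs 2 and 3 Cd53 likewise made 233 of 244 and 135 of 137 FPKM. Among neighbours only Akt-MACs and Akt-liver ECs differed (4.04 ± 1.06, adjusted p = 0.0155, with 14.2% of genes called), while their libraries overlapped.

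**Figure D2:**
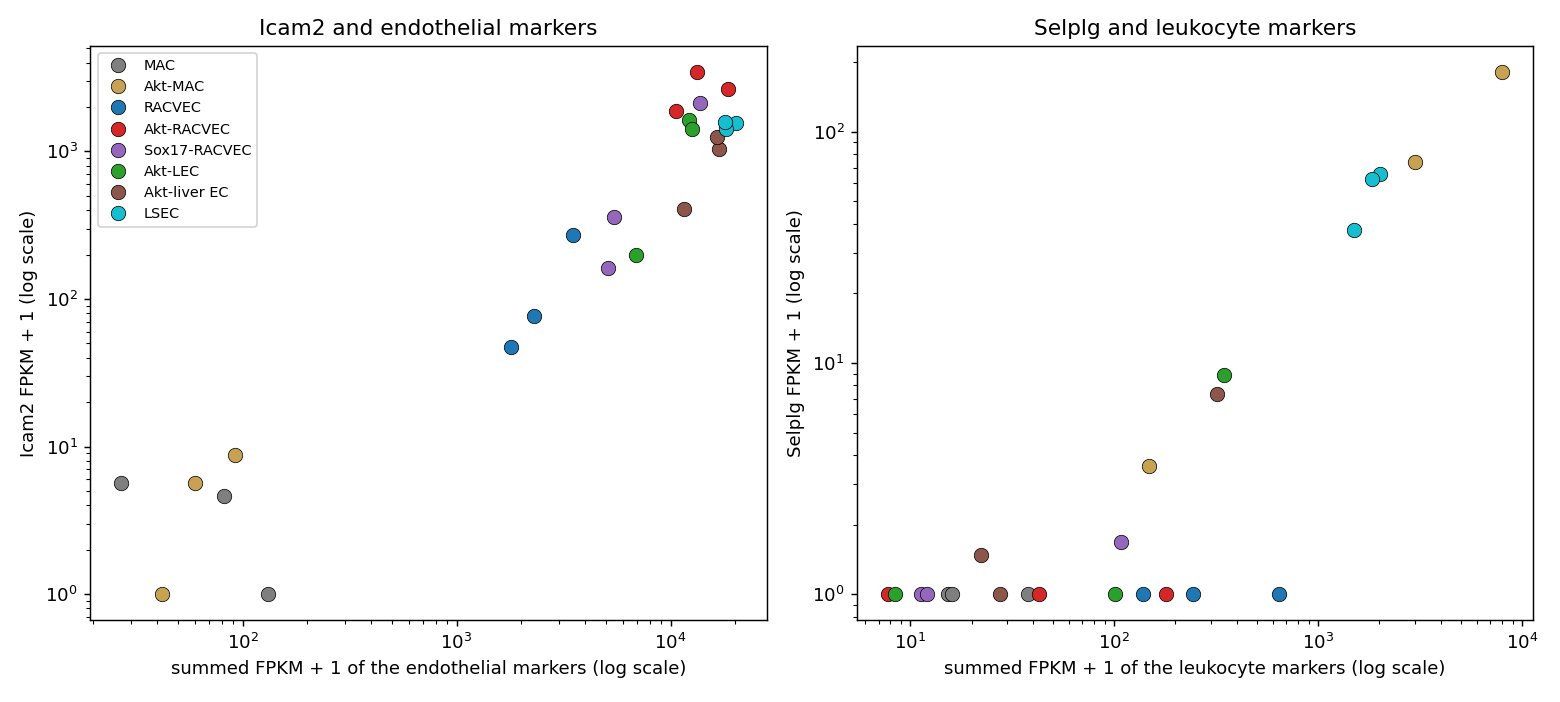
Left, Icam2 against the summed FPKM of 8 endothelial markers, and right, Selplg against the summed FPKM of 6 leukocyte markers, 1 point a library coloured by group (both axes FPKM + 1, log scale). Icam2 is high where endothelial markers are high, and Selplg exceeds 10 FPKM only in 2 Akt-MAC and 3 LSEC libraries with leukocyte markers of at least 1509 FPKM.

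The comparison of RACVECs with MACs spans the Ets factors together with the change to EC medium and its TGF-β signalling inhibitor, which cannot be told apart. Of the 7 members 2 were called, both higher in RACVECs, where 2.71% of all genes were called. Selp rose by 6.70 ± 1.03 (SE) on the log2 scale (adjusted p = 0.00113) and Icam2 by 5.07 ± 1.00 (adjusted p = 0.00777), with all 3 RACVEC libraries above all 3 MACs for each. Without RACVEC 2, which held the highest values of both, Icam2 differed by 4.35 and was not called (adjusted p = 0.0592). Both calls rest on the spread shared by all 8 groups: fitted on RACVECs and MACs alone, Selp (adjusted p = 0.164) and Icam2 (adjusted p = 0.147) were not called. The other members gave no call. Icam1 (log2 fold change 1.48 ± 1.63, adjusted p = 0.674) and Madcam1 (adjusted p = 0.121) did not overlap between the groups either, so that 4 of 7 members and 22% of all genes did not overlap. Madcam1 has no fold change here, since MACs were listed at 0. For Sele the log2 fold change was 2.37 ± 1.60 (adjusted p = 0.437), and for Vcam1 it was 0.05 with a 95% interval from -2.48 to 2.59. The endothelial markers moved beside Selp and Icam2, with 5 of 8 called higher.

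Adding Akt to RACVECs gave no called member, where 0.261% of all genes were called, and 4 members passed an unadjusted p below 0.05 with a log2 difference above 1 in size, as did 1501 of the 14964 genes. All 4 of these did not overlap between the groups, where 19.8% of all genes did not overlap. Icam2 had a log2 fold change of 4.70 ± 1.00 (95% interval 2.61 to 6.79, adjusted p = 0.0511). In the opposite direction were Icam1 with -4.27 ± 1.63 (interval -7.70 to -0.85, adjusted p = 0.210), Vcam1 with -2.86 ± 1.21 (adjusted p = 0.253) and Madcam1 with -3.55 ± 1.54 (adjusted p = 0.263). Every Akt-RACVEC library was on the same side of every RACVEC library for each of these genes. The calls depended on the fit: without the library labelled Sox17-RACVEC 2, which enters the shared estimate of the spread, Icam2 (adjusted p = 0.0126) and Icam1 (adjusted p = 0.0439) were called, and without RACVEC 2 Icam2 was (adjusted p = 0.0302). Sele and Selp lay at 0.87 ± 1.60 and 1.02 ± 1.03 on the log2 scale and were not called. Mesenchymal markers summed to 115, 33.4 and 0.31 FPKM in Akt-RACVECs and 2315 to 4915 in RACVECs, with 1 of 6 called lower, and endothelial markers were higher. Their part in the differences of Icam1, Vcam1 and Icam2 was not tested.

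Sox17-RACVECs had no called member against RACVECs, where 0.00668% of all genes, which is 1 gene, were called. Selp was at 1.76 ± 1.03 (adjusted p = 0.831), Icam2 at 2.33 ± 1.00 (adjusted p = 0.699), Icam1 at -2.67 ± 1.63 (adjusted p = 0.832), Vcam1 at -0.65 ± 1.21 (adjusted p = 1) and Madcam1 at -2.91 ± 1.54 (adjusted p = 0.796) on the log2 scale. Icam2 was the 1 member with an unadjusted p below 0.05, against 704 of all genes past the same limits, and Madcam1 the 1 member that did not overlap, where 10.6% of all genes did not. Without the library labelled Sox17-RACVEC 2, the log2 fold change became 1.52 for Selp, 1.29 for Icam2, -0.01 for Icam1, 0.50 for Vcam1 and -2.14 for Madcam1, none called. That of Sele was 0.51 ± 1.60 (adjusted p = 1) with the library and -0.46 without it. The mean FPKM of the remaining 2 libraries was then 260.4 for Icam2, 724 for Icam1, 346 for Vcam1 and 799 for Selp. Against Akt-RACVECs no member and 0% of all genes were called, 0 members and 8.15% of genes did not overlap, and 1 member, Icam2, passed an unadjusted p below 0.05, against 602 of all genes. Icam2 differed by -2.37 ± 1.00 (adjusted p = 0.597), or -3.41 without library 2 (adjusted p = 0.0774), and Vcam1 by 2.21 ± 1.21 (adjusted p = 0.711), or 3.36 (adjusted p = 0.161). Icam1 differed by 1.60 ± 1.63 (adjusted p = 0.921), or 4.26 without library 2 (adjusted p = 0.0729), and by -0.084 without Akt-RACVEC 3.

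Akt in MACs, which had not received Ets factors, gave 1 called member of 7, where 2.81% of all genes were called. Selplg was above 0 in each Akt-MAC and listed at 0 in each MAC (adjusted p = 0.0117), and it was the 1 member that did not overlap, where 14.9% of genes did not. The call was lost without Akt-MAC 2 (adjusted p = 0.0798), without Akt-MAC 3 (adjusted p = 0.0661) and without both (adjusted p = 1), and in a fit of these groups alone (adjusted p = 0.494). Leukocyte markers (4 of 6 called higher) and macrophage markers (4 of 6 called higher) moved beside it in the same libraries. Selp was at 2.25 ± 1.03 (adjusted p = 0.332), at 3.50 and called without Akt-MAC 1 (adjusted p = 0.0420) and at -0.27 without Akt-MAC 2 and 3, and Vcam1 at 0.50 ± 1.21 (adjusted p = 0.948) on the log2 scale. The difference between the Akt effect in RACVECs and that in MACs was not called for any member, where 0.1% of all genes were called. It was 4.39 ± 1.41 for Icam2 (adjusted p = 0.195), -3.36 ± 1.71 for Vcam1 (adjusted p = 0.450), -3.87 ± 2.31 for Icam1 (adjusted p = 0.533) and -5.18 ± 1.49 for Selplg (adjusted p = 0.146), and without Akt-MAC 1 Selplg was called (adjusted p = 0.00135). Icam2 and Selplg were the 2 members with an unadjusted p below 0.05, against 1516 of all genes.

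With Akt in both, Akt-RACVECs and Akt-MACs differed in 3 of 7 members, where 19.5% of all genes were called, and 4 members and 37.4% of genes did not overlap. Icam2 was higher in Akt-RACVECs by 9.46 ± 1.00 on the log2 scale (adjusted p = 8.26e-06) and Selp by 5.47 ± 1.03 (adjusted p = 0.00153). Selplg was listed at 0 in all Akt-RACVECs and was called lower (adjusted p = 0.00252), a call lost without Akt-MAC 2 and 3 (adjusted p = 0.319). Fitted on these groups alone, Selp (adjusted p = 0.0639) and Selplg (adjusted p = 0.0973) were not called. Vcam1 was at -3.31 ± 1.21 (adjusted p = 0.0544), without overlap between the groups.

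**Figure D3:**
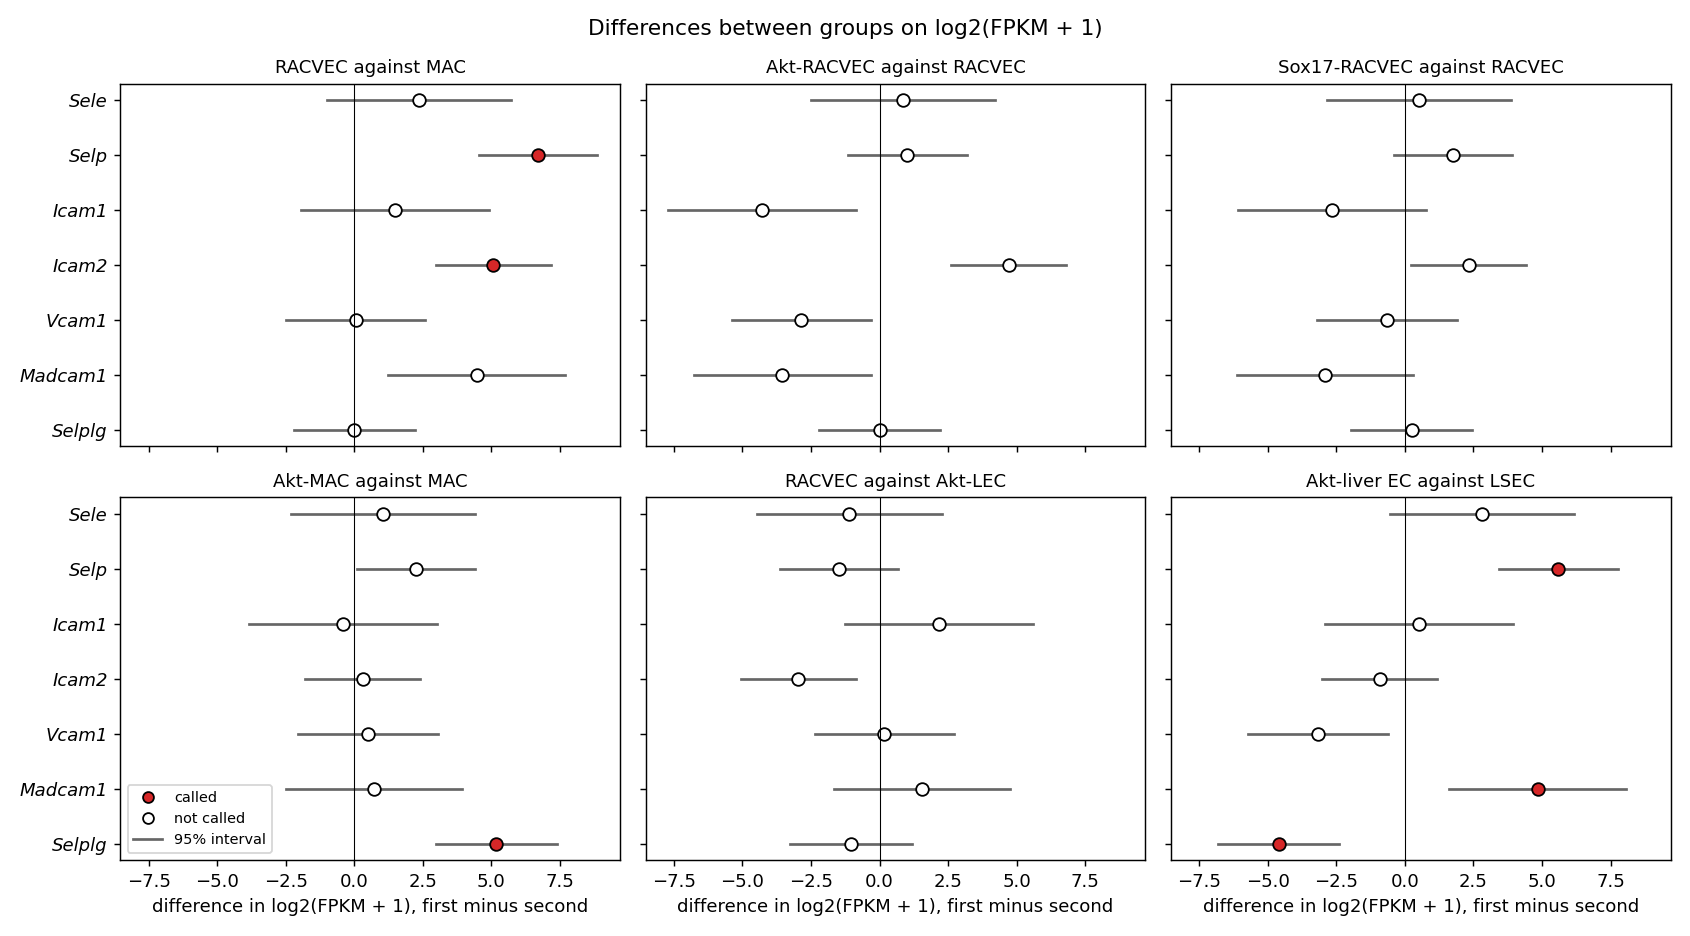
Difference between groups in mean log2(FPKM + 1) for each member in 6 comparisons, first group minus second (points, with bars for the 95% interval of limma, red where called). Called members are Selp and Icam2 in RACVECs against MACs, Selplg in Akt-MACs against MACs, and Selp, Madcam1 and Selplg in Akt-liver ECs against LSECs. Differences of Madcam1 and Selplg against a group listed at 0 depend on the added 1 and are not folds.

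Set beside the cultured lung ECs, RACVECs had no called member, where 0.261% of all genes were called. Icam2 was at -2.96 ± 1.00 (adjusted p = 0.232) and was the 1 member with an unadjusted p below 0.05, against 1165 of all genes, Selp was at -1.48 ± 1.03 (adjusted p = 0.628) and Icam1 at 2.17 ± 1.63 (adjusted p = 0.664), the 1 member without overlap, where 15.2% of genes did not overlap. Akt-RACVECs likewise had no called member against Akt-LECs, where 0.00668% of genes were called. Icam2 was at 1.74 ± 1.00 (adjusted p = 0.666) and Vcam1 at -2.69 ± 1.21 (adjusted p = 0.537), the 2 members that did not overlap, against 11.9% of genes, and Vcam1 was the 1 member with an unadjusted p below 0.05, against 623 of all genes. No member was called between Akt-LECs and Akt-liver ECs, and 0 had an unadjusted p below 0.05 against 417 of all genes, where 0.0134% of genes were called, and 0 members and 7.16% of genes did not overlap. Vcam1 was at 2.51 ± 1.21 (adjusted p = 1) and Madcam1 at -1.93 ± 1.54 (adjusted p = 1) in this comparison. Intervals this wide do not show that the groups were alike: for Vcam1 it ran from -0.03 to 5.05.

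Cultured and freshly sorted liver ECs differed in 3 of 7 members, where 27% of all genes were called. Selp was higher in Akt-liver ECs by 5.60 ± 1.03 on the log2 scale (adjusted p = 0.000411) and Selplg was lower, with a difference of -4.60 ± 1.06 (adjusted p = 0.00252). Madcam1 was called higher (adjusted p = 0.0202), but it was listed at 0 in Akt-liver EC 1 as in the LSECs, and the call was lost without Akt-liver EC 2 (adjusted p = 0.0985) or Akt-liver EC 3 (adjusted p = 0.120) and without LSEC 1 (adjusted p = 0.0527) or LSEC 3 (adjusted p = 0.0524), and with these groups alone (adjusted p = 0.135). Vcam1 was at -3.17 ± 1.21 (adjusted p = 0.05 when rounded), just short of the threshold, and was called at -5.08 without Akt-liver EC 1 (adjusted p = 0.000568). The remaining members gave no call, with Sele at 2.80 ± 1.60 (adjusted p = 0.189), Icam1 at 0.51 ± 1.63 (adjusted p = 0.849) and Icam2 at -0.92 ± 1.00 (adjusted p = 0.515). Selp, Icam2 and Selplg did not overlap between the groups, where 52.6% of genes did not. Leukocyte markers (3 of 6 called lower in Akt-liver ECs), macrophage markers (6 of 6) and hepatocyte markers (5 of 5) moved beside Selplg and Vcam1, and their part in these differences was not tested. The difference also spans culture, Akt transduction and the mode of isolation, which cannot be told apart.

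The partners of the members in the adhesion cascade were counted by lists. Genes of transmigration, by which leukocytes pass the junctions of ECs, had 3 of 7 members called higher on conversion of MACs to RACVECs. Of all genes 2.71% were called in this comparison. The median log2 fold change was 2.40 for the list beside 0 over all genes. Cdh5, which encodes VEcad, rose by 9.22 (adjusted p = 1.92e-09), Esam by 5.19 (adjusted p = 0.0126) and Pecam1, which encodes CD31, by 4.39 (adjusted p = 0.0145). Cdh5 and Pecam1 are also among the endothelial markers already counted, so their calls are not separate from that count. Because VEcad and CD31 served to select the primary ECs, neither gene is a finding in those groups. Among 8 selectin partners and other Icam genes, the sialomucin gene Podxl rose by 5.10 (adjusted p = 0.00449) and Podxl2 fell by 3.63 (adjusted p = 0.00674). Of the 12 genes of selectin ligand glycosylation and sulfation only the sialyltransferase gene St3gal3 was called, and it fell by 1.33 (adjusted p = 0.00571). Of the 6 Weibel-Palade granule genes, named for the granule that stores P-selectin, Stxbp5 rose by 2.31 (adjusted p = 0.000776), from 11.9 ± 3.28 to 61.9 ± 11.6 FPKM. The genes of highest level in that list, Cd63 and Vamp3, lay at 0.20 and -0.05 and were not called. Vwf, the granule's main cargo, is named after its values were seen: it was at 0.28 to 3.17 FPKM in RACVECs, and at 8.51, 4.43 and 2120 in Akt-RACVECs.

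No gene was called among 7 leukocyte integrins, 8 genes of the docking structure under bound leukocytes and 15 genes of cytokine receptors and NF-kB in this comparison. In the last list the TNF receptor gene Tnfrsf1a was at 678 ± 155 FPKM in MACs and 763 ± 106 in RACVECs, and the NF-kB inhibitor gene Nfkbia at 314 and 488 on average (adjusted p = 0.489). The median log2 fold change of that list was 0.34. Adding Akt to RACVECs gave 1 call over the 7 lists, the higher level of Pecam1 (log2 fold change 6.26, adjusted p = 0.0101), which went from 84.9 ± 70.0 to 4768 ± 1539 FPKM. Adding Akt to MACs gave 3 calls, all in the leukocyte integrins, with Itgb2 at 6.52 (adjusted p = 0.00919), Itgam at 6.38 (adjusted p = 0.0116) and Itgal at 5.68 (adjusted p = 0.0104). Itgb2 is also 1 of the leukocyte markers, and these rises stood beside the leukocyte and macrophage markers of Akt-MAC 2 and 3.

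In Akt-liver ECs against LSECs, where 27% of all genes were called, 5 of 15 genes of cytokine receptors and NF-kB were called lower and none higher, and the median log2 fold change was -0.93 beside 0.08 over all genes. The interferon-responsive factor Irf1 fell by 4.01 (adjusted p = 4.06e-05), the inhibitor of apoptosis gene Birc3 by 2.15 (adjusted p = 0.000609), the NF-kB feedback gene Tnfaip3 by 1.90 (adjusted p = 0.0289) and the NF-kB subunit gene Rel by 1.74 (adjusted p = 0.00959). Beside them 3 of 6 leukocyte, 6 of 6 macrophage and 5 of 5 hepatocyte markers were called lower, and their part in this result was not tested. Among leukocyte integrins 2 of 7 were called lower, Itgal at -4.76 (adjusted p = 0.00290) and Itgb7 at -4.54 (adjusted p = 3.16e-05), beside the leukocyte markers. The selectin partners held 2 calls in each direction, among them Podxl2 at 3.57 (adjusted p = 0.000748), Cd34 at 3.20 (adjusted p = 0.0120) and Spn at -1.87 (adjusted p = 0.0422). Of the glycosylation genes 2 were called higher and 3 lower, among them the fucosyltransferase gene Fut4 at 2.94 (adjusted p = 0.00376), the sulfotransferase gene Chst2 at -2.92 (adjusted p = 0.0307), the sialyltransferase gene St3gal4 at -2.91 (adjusted p = 8.78e-05) and the tyrosine sulfotransferase gene Tpst1 at 2.02 (adjusted p = 0.00287).

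The granule genes had 1 call in each direction in this comparison. Cd63, a tetraspanin of the granule that holds P-selectin at the surface, was at 23.3 ± 11.3 FPKM in LSECs and 551 ± 177 in Akt-liver ECs (log2 fold change 4.55, adjusted p = 2.15e-08). It did not follow Selp over the other groups. Cd63 was at 347 to 780 FPKM in MACs and 348 to 612 in Akt-MACs, where Selp was at most 8.53 and 50.3. Rab27a, a small GTPase of granule release, fell by 3.09 (adjusted p = 0.0425). Of the transmigration genes Jam2 fell by 7.66 (adjusted p = 0.00871) and Jam3 rose by 2.10 (adjusted p = 0.0189), and of the docking genes the tetraspanin gene Cd81 fell by 1.06 (adjusted p = 0.0110).

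**Figure D4:**
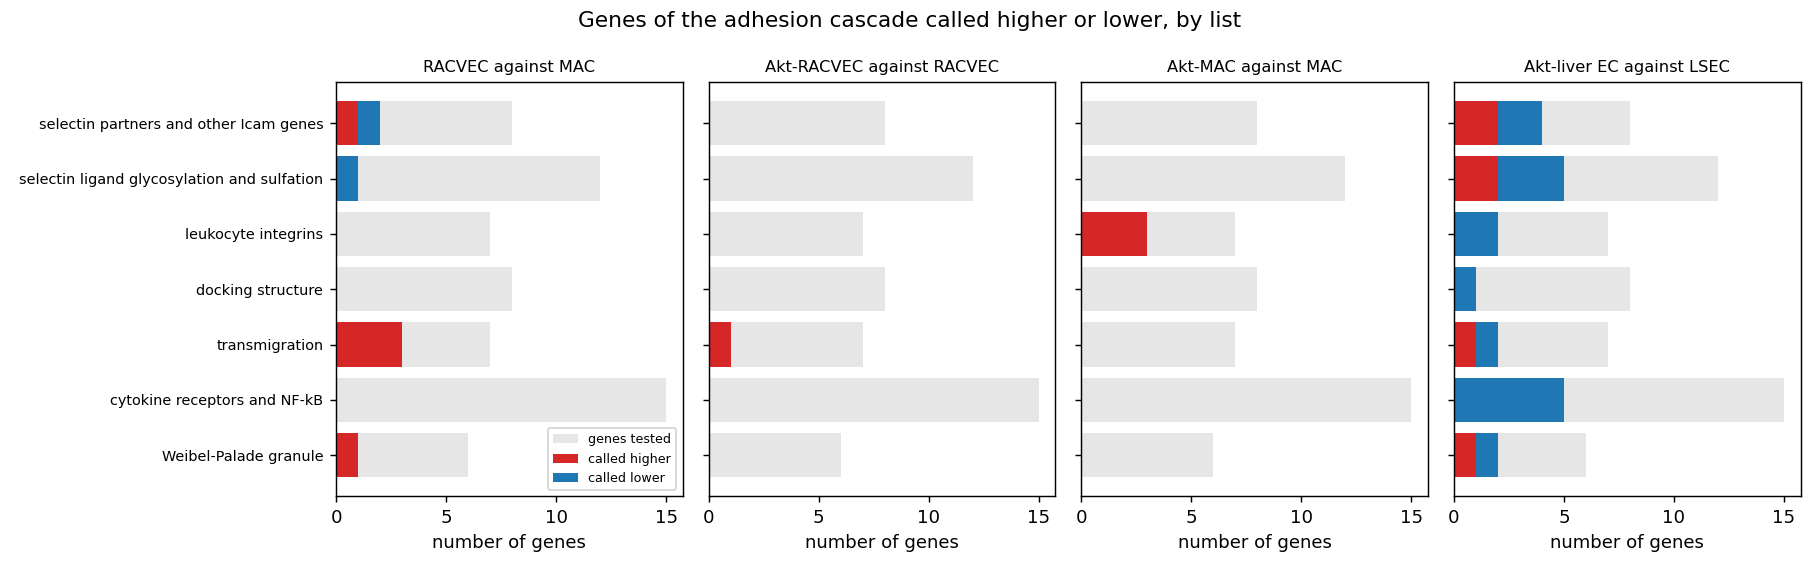
Number of genes in 7 lists of the adhesion cascade that were tested (grey) and called higher (red) or lower (blue) in 4 comparisons, first group against second. Calls are few in the conversion and Akt comparisons, apart from 3 of 7 transmigration genes in RACVECs and 3 of 7 leukocyte integrins in Akt-MACs, and are spread over all lists between Akt-liver ECs and LSECs.

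The genes whose log2(FPKM + 1) followed each member most closely over the 24 libraries were taken from 11699 genes with a mean of at least 10 FPKM. These correlations rest on groups that differ in many genes at once and are a description only. For Icam2 they were the endothelial receptor gene Tie1 (r = 0.972), She (r = 0.969) and Gimap5 (r = 0.967), and for Selp Dock4 (r = 0.907), the integrin gene Itgb3 (r = 0.899) and Afdn (r = 0.896). For Selplg they were the leukocyte kinase gene Btk (r = 0.997), Sla (r = 0.995) and Clec4a2 (r = 0.995). Sele was followed most closely by the chemokine gene Cxcl1 (r = 0.807), Chn2 (r = 0.747) and Lmo1 (r = 0.742). The other members had Fbxo17 (r = 0.898), Idh2 (r = 0.896) and Gypc (r = 0.878) for Icam1, Papss2 (r = 0.836), Serpinb6a (r = 0.813) and Alkbh7 (r = 0.813) for Vcam1, and Smyd2 (r = 0.699), Upf3b (r = 0.693) and Susd2 (r = 0.681) for Madcam1. Among the members themselves, Selp and Icam2 had the highest correlation (r = 0.705), whereas Icam1 and Icam2 had r = -0.255 and Icam1 and Vcam1 r = 0.428.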

How the data were processed

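RNA sequencing of 24 libraries was analysed. The authors sequenced paired reads of TruSeq libraries, mapped them with TopHat to mm9 and deposited FPKM values that Cufflinks computed with its upper-quartile scaling and bias correction switched on, with 1 value per RefSeq transcript. Software versions are not given in the sources used here, and TopHat, Cufflinks and mm9 are also named by the submitters' processing notes. The files give no fragment numbers, so that depth is unknown and counting error and detection limits are left out. The summed FPKM per library was 1689486 to 2317294, and 12356 to 14985 genes were above 0. Precision comes from the spread among 3 libraries per group, and p-values measure this spread, which may in part be technical.

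Of 27583 transcripts, 26930 were joined to a mouse symbol and FPKM were summed per symbol. A single limma model (limma 3.58.1, R 4.3.3) with moderated variances was fitted to log2(FPKM + 1) over the 8 groups, over 14964 genes with a mean of at least 1 FPKM, with two-sided tests and Benjamini-Hochberg adjustment. A log2 fold change on this scale understates the change of low genes. Replicate numbers were not taken as pairs, since in none of the 10 comparisons did all 3 same-numbered pairs of deviations correlate above 0.1. This check cannot exclude pairing: in Akt-LECs against Akt-liver ECs the correlations of pairs 1, 2 and 3 were 0.571, 0.366 and -0.050. The fit was tested on simulated data. Python 3.11.15 with numpy 2.4.6, pandas 2.3.3 and matplotlib 3.10.9 served for the rest. Positions are those of GENCODE M1 on mm9, and promoter windows come from RefSeq on GRCm38.p6, with the NF-kB letters chosen after the sequences were seen.

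The members and lists were chosen with earlier results of these data known. All members are named. Of each list at most 4 called genes of largest change were to be named, and where fewer than 2 were called the 2 of highest mean, some of which are not reported here. Vwf was added after its values were seen, and the 3 most similar genes of each member are named. Alternatives were pseudocounts of 0.1 and 10, no filter, a mean of at least 10 FPKM, only the groups compared with and without a replicate block, scaling by the median shift, the criterion of the study's methods and leaving out each library. That criterion was an unadjusted p below 0.05 in a two-sided t-test with unequal variances on FPKM, with a log2 difference above 1 in size. Leaving out Akt-MAC 2 and 3, Akt-LEC 1 with Akt-liver EC 1, and the library labelled Sox17-RACVEC 2 were added after seeing the data.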

Additional observations from a re-analysis of the deposited data

How the results depend on the processing

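Over the 11 comparisons, 714 values of the reported differences of members kept direction and call under the alternatives, 29 lost a call, 20 gained one and 9 changed sign, none of them by scaling each library. Members called were 2 in RACVECs against MACs, with 0 when only these groups were fitted, 0 with a replicate block added and 1 to 2 leaving out each library. By the criterion of the study's methods, which does not adjust p, 1 was called (Icam1, with Selp and Icam2 lost). Counts by that criterion are not comparable with the adjusted calls. Akt-RACVECs against RACVECs went from 0 to 1 with a pseudocount of 10 or a mean of at least 10 FPKM, 2 by that criterion (Icam1 and Icam2), 2 without the library labelled Sox17-RACVEC 2 in the fit and 0 to 1 leaving out each library. Akt-MACs against MACs went from 1 to 0 with only these groups, with the block, by the criterion and without Akt-MAC 2 and 3, and to 0 to 2 leaving out each library. Akt-RACVECs against Akt-MACs went from 3 to 0 with the block and 1 by the criterion (Icam2), RACVECs against Akt-LECs from 0 to 1 (Icam1) and Akt-liver ECs against LSECs from 3 to 1 (Selplg) by the criterion, the last with 2 to 4 leaving out each library. The difference in Akt effect went from 0 to between 0 and 1. The replicate numbers were not taken as pairs in the main fit, and the cause of these moves was not tested. Shares of all genes called under these settings are not given here, so the moves are not read as particular to the members. Among the differences given in the report, none past the threshold, changes of sign were in Vcam1 for RACVECs against MACs (-0.023 by the criterion and -0.44 to 0.43 leaving out each library) and Sox17-RACVECs against RACVECs (-1.34 to 0.50), leaving out each library in Sele for Sox17-RACVECs against RACVECs (-0.46 to 1.29) and Icam1 for Sox17-RACVECs against Akt-RACVECs (-0.084 to 4.26), and, for Akt-MACs against MACs without Akt-MAC 2 and 3, in Selp (-0.27) and Vcam1 (-0.61). With a library left out, the remaining group was taken to vary like the others. Some differences of members that are not given in the report also changed sign. The unknown depth limits statements about genes listed at 0.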
